A study of Mus musculus with 48 samples.

Results

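The comparison set astrocytes of the olfactory bulb against astrocytes of the hippocampus in mice at postnatal day 7 (P7). It used the 6 P7 libraries of these regions, 3 from olfactory bulb and 3 from hippocampus, out of 48 RNA-seq libraries in the series. They were chosen by their tissue, cell type and age labels, and no measured value entered the choice. The series profiled astrocytes from olfactory bulb, cortex and hippocampus at P1, P7 and P14, and these regions at P28 in mice with and without a conditional knockout of Gabbr1. The 6 libraries carry the cell type label astrocyte and the age P7, and differ in their labels only by tissue and library number. Strain, genotype, sex and treatment are not given in the labels of these libraries. The labels do not say how astrocytes were separated from other cells after dissociation, nor whether the 3 libraries of a region came from separate animals. Nor do they say whether both regions were taken from the same animals, and the tests treat the 6 libraries as unpaired. P-values therefore measure the spread between these libraries, which may be technical in part.

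Astrocytes are glial cells that clear glutamate and potassium from around synapses, couple to each other through gap junctions and line blood vessels with their end feet. In the first postnatal weeks they stop dividing, branch out and switch on uptake carriers, channels and water pores, and they keep transcription factors that mark the forebrain territory they came from. The hippocampus arises from dorsal forebrain, whereas the olfactory bulb receives new GABAergic interneurons from the ventral forebrain and subventricular zone throughout postnatal life. The GABA-B receptor, a pair of the subunits Gabbr1 and Gabbr2, is a G protein-coupled receptor for the inhibitory transmitter GABA, and Gabbr1 in astrocytes is the gene the study is built on.

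Between 3965254 and 5542610 reads were assigned to genes per library. The ribosomal RNA gene Rn45s took 19.2% to 22.2% of them in olfactory bulb and 24.4% to 28.9% in hippocampus, and it was set aside before scaling. Values are scaled reads, meaning recovered read numbers divided by a median-ratio size factor over the 6 libraries. Pearson correlations of log2 values across genes were 0.946 to 0.973 within a region and 0.852 to 0.908 between regions. The Y-linked gene Ddx3y was at 505 in olfactory bulb replicate 2, at 556 in hippocampus replicate 2 and at 0 in the other 4 libraries, so each region held 1 library with Y-linked reads. It was the same replicate number in both regions, and the library numbers rise in the same steps in both. Whether replicates of the regions share an animal was not tested. Region also went with library number and with the deposited table, and these cannot be told apart.

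A few libraries stood apart from the others of their region. Olfactory bulb replicate 3 had the lowest summed level of the 24 astrocyte maturation genes, 24472 against 34770 and 44125, and the highest levels of Dlx and Sp9 interneuron genes. Hippocampus replicate 1 carried reads of these interneuron genes that the other hippocampal libraries nearly lacked, such as 62.7 for Dlx5 against 1.81 and 6.94. It also had the highest summed levels of microglia and endothelial markers in the comparison, 2861 and 1122. Hippocampus replicate 3 had 1359 scaled reads of Ttr, a thyroxine carrier made by choroid plexus, against 11.5 and 205 in the others. For some of the results that rest on these libraries, values without them are also given below.

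At P7 the regions differed widely. Of 12616 genes with a mean of at least 10 scaled reads, 4395 (34.8%) passed an adjusted p of 0.05 in limma. Of these, 2123 (16.8% of tested genes) were higher in olfactory bulb and 2272 (18.0%) were higher in hippocampus. A difference of at least 2-fold was reached by 2517 of the called genes, 1100 higher in olfactory bulb and 1417 higher in hippocampus. The values of the regions did not overlap for 6406 genes (50.8%). Across all tested genes the median difference was 0.00424 on the log2 scale. With Rn45s kept and libraries scaled by total reads, that median shifted to 0.23 toward olfactory bulb and 68.4% of the calls were higher there, against 48.3% in the scaling used. Directions are therefore stated relative to the median gene. All differences below are olfactory bulb minus hippocampus in log2(scaled reads + 1), with the standard error, so that positive values are higher in olfactory bulb. This scale understates the difference of low genes.

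Of the 12 genes named for the largest differences toward olfactory bulb, Frmd7, Lgr5, Prokr2 and Syt6 led. Frmd7, a cytoskeletal adaptor gene of neurons, had 1210, 652.5 and 543 scaled reads in the olfactory bulb libraries and 5.30, 6.35 and 6.94 in hippocampus. The difference was 6.72 ± 0.30 (adjusted p = 4.32e-06), the largest toward olfactory bulb by the rule for named genes. Prokr2, a receptor for prokineticin that guides neuroblasts into the bulb, had 2088, 1299 and 3474 against 17.7, 30.8 and 31.9, a difference of 6.29 ± 0.34. The rule that named these genes asked for no overlap between the regions, so the lack of overlap is no result. Lgr5, an R-spondin receptor of the Wnt pathway, had 598, 377 and 246 against 4.42, 4.53 and 2.78, a difference of 6.31 ± 0.34. Cdhr1, a cadherin-related gene, had 255, 361 and 160 against 0, 3.63 and 8.33, a difference of 6.13 ± 0.69, which was 5.22 without hippocampus replicate 1 and 6.90 without hippocampus replicate 3. The hippocampal libraries thus held only a few reads of Lgr5 and Cdhr1.

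Syt6, a member of the synaptotagmin family of membrane trafficking proteins, had 1239, 729 and 1264 scaled reads in olfactory bulb and 12.4, 12.7 and 12.5 in hippocampus. Its difference of 6.27 ± 0.23 had the lowest adjusted p of the 24 genes named by size, 1.47e-06. Synpr, a synaptic vesicle protein gene, had 1444, 710 and 708 against 29.2, 28.1 and 36.1, a difference of 4.82 ± 0.27. The spread within each region was small beside the gap for both genes. Gng4, a G protein gamma subunit gene, had 1864, 864 and 746 against 38.9, 44.4 and 59.7, a difference of 4.47 ± 0.32. Ajap1, a gene for an adherens junction protein, had 221, 173 and 148 against 16.8, 9.07 and 2.78, a difference of 4.35 ± 0.49 that was 3.75 without hippocampus replicate 3.

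The remaining 4 of the 12 were homeobox and zinc finger genes of GABAergic interneurons or their antisense neighbour. Dlx5 had 336, 174 and 811 scaled reads in olfactory bulb and 62.7, 1.81 and 6.94 in hippocampus, a difference of 5.01 ± 0.95 (adjusted p = 0.00314). Sp9, a zinc finger factor of bulb interneurons, had 416, 209 and 722 against 55.7, 1.81 and 2.78, a difference of 5.56 ± 0.96. In both, hippocampus replicate 1 lay well above the other hippocampal libraries. Dlx1 had 763, 499 and 1247 against 118, 12.7 and 23.6, a difference of 4.51 ± 0.66. Dlx6os1, transcribed antisense to Dlx6, had 1405, 1146 and 2450 against 250, 19.9 and 36.1, a difference of 4.77 ± 0.73. Since strand use in counting is not given in the sources used here, reads of Dlx6os1, Dlx6 and Dlx5, and of Dlx1 and its antisense neighbour, cannot be told apart. Without hippocampus replicate 1 the differences rose to 6.25 for Dlx5, 6.92 for Sp9, 5.40 for Dlx1 and 5.82 for Dlx6os1. Without hippocampus replicate 2 they were 4.01, 4.76, 3.85 and 4.03 in that order.

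**Figure D1:**
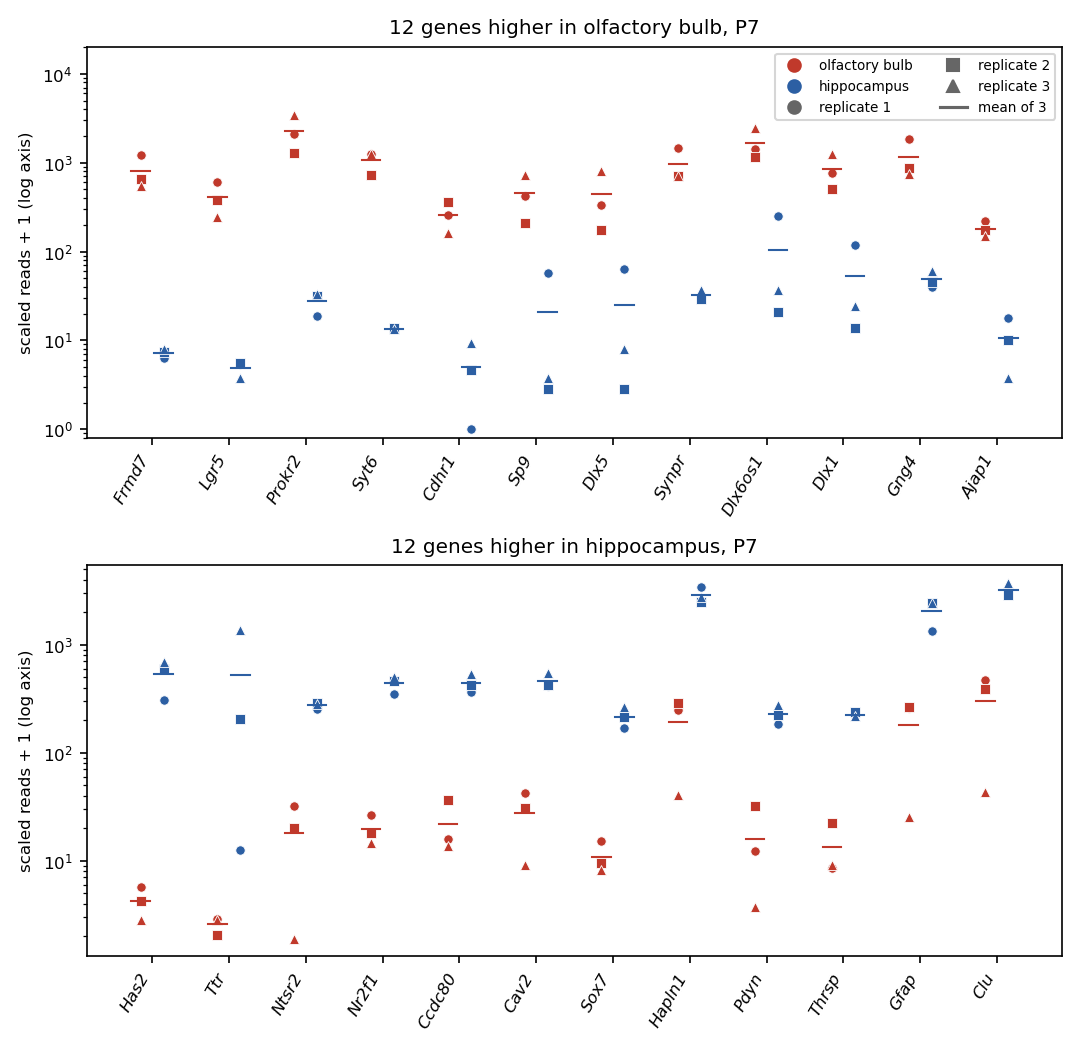
Scaled reads + 1 on a log axis in each P7 library for the 12 genes with the largest difference in each direction, with olfactory bulb in red, hippocampus in blue, a marker shape for each replicate and a bar for the mean of 3. The genes were chosen to have no overlap between regions. Hippocampus replicate 1 stands above the other hippocampal libraries for Sp9, Dlx5, Dlx6os1 and Dlx1, and olfactory bulb replicate 3 is lowest of all libraries for Gfap (24.3) and Clu (42.3).

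Promoter windows were searched for short letter strings because the Dlx and related homeobox genes moved together. The strings were TAATTA, a core that many homeodomain proteins bind, CAGCTG, an E-box form, TTGGCA, part of the binding site of nuclear factor I proteins such as Nfia, and the full nuclear factor I palindrome, each on both strands. The palindrome and TTGGCA share the letters TTGGC and can overlap. At least 1 TAATTA was found for 6.12% of 27025 genes in the RefSeq promoter table, 3.34% of the 9592 tested genes with a window, 3.95% of 1594 genes called higher in olfactory bulb and 3.46% of 1733 called higher in hippocampus. The shares for CAGCTG were 18.3%, 18.0%, 20.3% and 19.7% in the same order, and for TTGGCA 16.1%, 13.7%, 14.3% and 15.5%. The palindrome was found for 0.0444%, 0.0313%, 0.125% and 0%, which were only 12, 3, 2 and 0 genes. A stretch of 120 bases from 1 of the 3 Syt6 windows is shown, chosen after the search, because Syt6 had the smallest p of the 24 genes and this window holds the homeodomain core. The window also holds CAGCTG, outside this stretch. The stretch is from GRCm38.p6, plus strand, chr3:103574995-103575114, and the capitals mark TAATTA, 224 bases before the start site. A match is a description of letters and no evidence of binding.
Syt6: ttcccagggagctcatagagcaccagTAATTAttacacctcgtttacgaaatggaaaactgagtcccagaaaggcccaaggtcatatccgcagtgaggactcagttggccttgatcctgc

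Of the 12 genes named for the largest differences toward hippocampus, Has2, Ttr, Ntsr2 and Nr2f1 led. Has2, a hyaluronan synthase that lays down the backbone of brain extracellular matrix, had 306, 589 and 690 scaled reads in hippocampus and 4.68, 3.20 and 1.80 in olfactory bulb. The difference was -6.95 ± 0.37 (adjusted p = 6.97e-06), the largest in that direction. Hapln1, a link protein that ties hyaluronan to proteoglycans, had 3383, 2496 and 2730 against 246, 286 and 39.6, a difference of -4.32 ± 0.59 that was -3.41 without olfactory bulb replicate 3. Olfactory bulb replicate 3 was the lowest library for both matrix genes. Ccdc80, a gene for a secreted matrix-binding protein, had 362, 422 and 533 against 14.99, 35.2 and 12.6, a difference of -4.45 ± 0.34. Nr2f1, a nuclear receptor that patterns the cortex and hippocampus, had 346, 461 and 504 against 25.3, 17.1 and 13.5, a difference of -4.51 ± 0.26. Sox7, a SOX family factor known from endothelium, had 168, 215 and 261 against 14.1, 8.53 and 7.21, a difference of -4.33 ± 0.30. Cav2, a caveolin gene, had 417, 423 and 550 against 41.2, 29.9 and 8.11, a difference of -4.34 ± 0.47 that was -3.67 without olfactory bulb replicate 3.

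Several of the hippocampus-high genes were astrocyte genes whose bulb values were pulled down in olfactory bulb replicate 3. Gfap, the intermediate filament of astrocytes, had 1336, 2407 and 2430 scaled reads in hippocampus and 257, 261 and 24.3 in olfactory bulb. Clu, a secreted chaperone abundant in astrocytes, had 3048, 2873 and 3703 against 465, 389 and 42.3. Ntsr2, a neurotensin receptor of astrocytes, had 251, 286 and 283 against 30.9, 19.2 and 0.901. Replicate 3 was the lowest bulb library in all 3 genes. The differences were -4.05 ± 0.74 for Gfap, -4.00 ± 0.71 for Clu and -4.68 ± 0.83 for Ntsr2 with all 6 libraries. Without olfactory bulb replicate 3 they were -2.93, -2.90 and -3.42, without olfactory bulb replicate 1 those of Clu and Ntsr2 were -4.61 and -5.46, and all 3 kept an adjusted p under 0.05 whichever library was left out.

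Pdyn, which encodes the precursor of dynorphin peptides, had 183, 223 and 276 scaled reads in hippocampus and 11.2, 30.9 and 2.70 in olfactory bulb, a difference of -4.32 ± 0.62 that was -3.50 without olfactory bulb replicate 3 and -5.07 without olfactory bulb replicate 2. Thrsp, a gene tied to fatty acid synthesis, had 221, 237 and 215 against 7.49, 21.3 and 8.11, a difference of -4.23 ± 0.35. Ttr had 11.5, 205 and 1359 in hippocampus, while olfactory bulb held at most 2 reads in any library. Its difference was -5.89 ± 1.29, and it ranged from -4.35 without hippocampus replicate 3 to -7.69 without hippocampus replicate 1. The hippocampal values were far apart. Summed levels of the 12 choroid plexus markers, of which Ttr and Otx2 alone passed the filter on low values, were 51.3 to 103 in olfactory bulb and 177.5 to 1502 in hippocampus, and their part in the Ttr result was not tested.

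The GABA-B receptor genes were lower in olfactory bulb at P7. Gabbr1 had 843, 754 and 822 scaled reads in olfactory bulb and 2299, 2355 and 3200 in hippocampus. Every hippocampal library was above every bulb library, the mean was 3.25-fold higher in hippocampus, and the difference was -1.68 ± 0.16 (adjusted p = 8.88e-05). A lack of overlap, in either direction, was seen for 50.8% of all tested genes. Gabbr2, the partner subunit that couples the receptor to G proteins, had 272, 178 and 120 against 643, 276.5 and 593, a difference of -1.39 ± 0.35 (adjusted p = 0.0130). Hippocampus replicate 2 lay just above the highest bulb library, and the adjusted p rose to 0.0477 without hippocampus replicate 3. Kctd12, an auxiliary subunit that shapes receptor desensitization, had 998, 1274 and 1052 against 1877, 1728 and 2249, a difference of -0.82 ± 0.16. Of 4 genes tested among the receptor subunits and their KCTD partners, 3 were higher in hippocampus and none was higher in olfactory bulb. The receptor is also expressed by neurons and other glia, so in these bulk samples fewer cells of a type and less RNA per cell cannot be told apart, here and in every result below.

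A set of 5 genes that the study examined together with the receptor was also lower in olfactory bulb, with 5 of 5 called and a median difference of -1.86. The study could have chosen these genes on libraries of this series, so their direction is not independent evidence. Sox9, a glial fate factor, had 748, 722 and 517 scaled reads in olfactory bulb and 1837, 1929 and 1936 in hippocampus, a difference of -1.54 ± 0.16. Nfia, a nuclear factor I protein that starts astrocyte formation, had 1888, 2222 and 3278 against 6942, 6692 and 7428, a difference of -1.55 ± 0.20. Olfactory bulb replicate 3 was thus the lowest bulb library for Sox9 and the highest for Nfia. Ednrb, an endothelin receptor, had 2188, 2703 and 1176 against 7226, 6517 and 7101, a difference of -1.86 ± 0.26. Lhx2, a LIM homeobox factor of dorsal forebrain, had 244.5, 240 and 151 against 858, 933 and 1225, a difference of -2.26 ± 0.21. Npas3, a neuronal PAS domain factor, had 162, 229 and 154 against 755, 825 and 1001, a difference of -2.25 ± 0.19. For none of the 5 did the regions overlap, as was so for 50.8% of all tested genes.

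**Figure D2:**
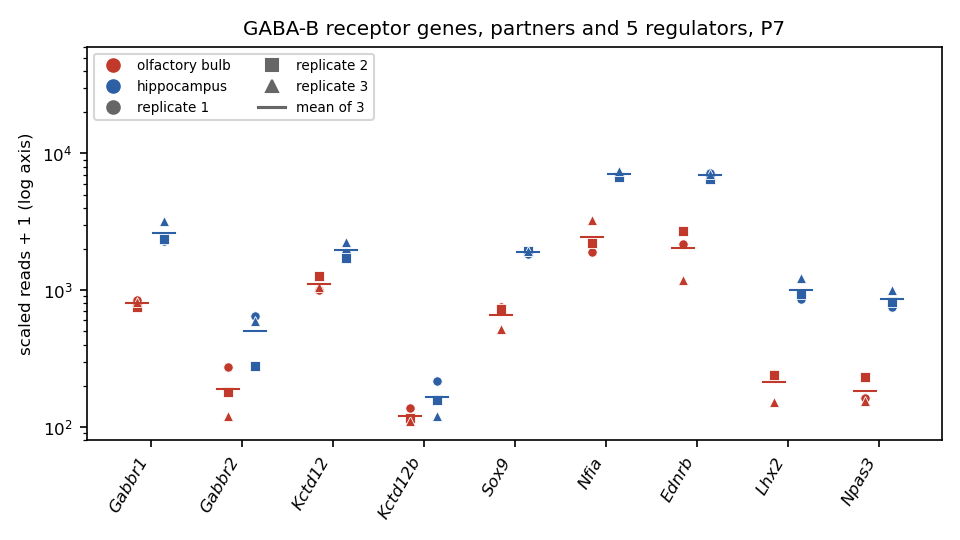
Scaled reads + 1 on a log axis in each P7 library for the GABA-B receptor genes, Kctd partners and the 5 genes examined with them, with olfactory bulb in red, hippocampus in blue and a bar for the mean of 3. Gabbr1 sits between 754 and 843 in olfactory bulb and between 2299 and 3200 in hippocampus, whereas the regions meet for Kctd12b.

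Genes of astrocyte maturation were nearly all higher in hippocampus. Of 24 tested, 23 were higher in hippocampus and none in olfactory bulb, with a median of -2.32, against a median of 0.00424 over all tested genes. The count stayed at 23 whichever library was left out. The summed level of the list was 24472 to 44125 in olfactory bulb and 137727 to 197408 in hippocampus. Slc1a2, the main glutamate carrier GLT-1, had 8717, 9482 and 5425 scaled reads in olfactory bulb and 81499, 66386 and 104809 in hippocampus. That was a 10.7-fold higher mean in hippocampus and a difference of -3.43 ± 0.26 (adjusted p = 3.66e-05). Slc1a3, the glutamate carrier GLAST that astrocytes express from early on, had 9153, 12490 and 7305 against 17600, 16342 and 20499, a difference of -0.94 ± 0.22. With quantile normalization Slc1a3 was at -0.39 and not called (adjusted p = 0.210). The carrier that astrocytes acquire later thus differed by more than the early one, although the difference between the 2 values was not tested.

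Aqp4, the water channel of end feet, had 2331, 3519 and 1227 scaled reads in olfactory bulb and 9754, 11482 and 12884 in hippocampus, a difference of -2.39 ± 0.32. Gja1, the gap junction protein connexin 43, had 444, 609 and 328 against 2214, 2175 and 2437, a difference of -2.35 ± 0.21. Slc14a1, a urea transporter, had 140.5, 169.5 and 87.4 against 1323, 1234 and 1651, a difference of -3.44 ± 0.23. Replicate 3 was again the lowest bulb library in all 3 genes. Fgfr3, a fibroblast growth factor receptor of astrocytes, differed by -3.21 ± 0.39, S100b, a calcium-binding protein, by -2.57 ± 0.30 and Aldoc, a glycolytic aldolase, by -2.40 ± 0.23. With 1 library left out Fgfr3 ranged from -3.6 to -2.64 and Aqp4 from -2.74 to -1.97. Aldh1l1, a folate enzyme used as a pan-astrocyte marker, had 301, 416 and 457 against 623, 604 and 886, a difference of -0.85 ± 0.20. Here olfactory bulb replicate 3 was the highest bulb library. Gjb6, connexin 30, was the member that was not called, with 55.3, 98.1 and 60.3 against 71.5, 51.7 and 79.1 and overlapping groups.

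The astrocyte genes named here were read in all 6 libraries, though Ntsr2 was at 0.901 in olfactory bulb replicate 3. Reads in bulk RNA do not show what share of the cells were astrocytes. Neuronal RNA was read beside them, and more in olfactory bulb. Dcx, the microtubule protein of migrating neuroblasts, had 12499, 8047 and 15022 scaled reads in olfactory bulb and 1196, 966 and 1022 in hippocampus. The mean was 11.2-fold higher in olfactory bulb and the difference was 3.44 ± 0.22. In scaled reads not divided by length, the bulb mean of Dcx was 11856, against 7875 for Slc1a2, 9650 for Slc1a3 and 391 for Aldh1l1. Of 12 pan-neuronal markers 9 were higher in olfactory bulb and 1 in hippocampus, a count of 0 without hippocampus replicate 2 or 3 or olfactory bulb replicate 2, with summed levels of 19640 to 28568 against 5587 to 7652. In olfactory bulb replicate 3 this sum was 28568, above the 24472 of the astrocyte maturation list. Tubb3, a neuronal tubulin, differed by 2.41 ± 0.24 and Snap25, a vesicle fusion protein, by 1.74 ± 0.41. The part of neuronal RNA in the results on astrocyte genes was not tested.

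GABAergic neuron markers were higher in olfactory bulb in 13 of 13 cases, with a median difference of 4.19. The summed level of the list was 4549 to 8977 in olfactory bulb and 338 to 797 in hippocampus. Gad1, a GABA-synthesizing enzyme, had 812, 530 and 639 scaled reads in olfactory bulb and 31.8, 37.2 and 41.7 in hippocampus, a difference of 4.11 ± 0.20. Gad2, the second form of the enzyme, had 1689, 1252 and 2346 against 150.2, 85.2 and 179, a difference of 3.68 ± 0.29. Neither gene showed the excess of hippocampus replicate 1 over its group seen for Dlx5. Calb2, the calretinin of bulb granule and periglomerular cells, had 362, 265.5 and 398 against 30.0, 31.7 and 29.2, a difference of 3.43 ± 0.20. Th, the rate-limiting enzyme of dopamine synthesis in periglomerular cells, had 67.4, 30.9 and 13.5 in olfactory bulb and at most 1 read per library in hippocampus, a difference of 4.68 ± 0.72. Glutamatergic neuron markers were split, with 5 of 12 higher in olfactory bulb and 3 in hippocampus, or 1 and 2 in a fit of all 28 developmental libraries of the 3 regions. Slc17a6, a vesicular glutamate carrier, differed by 1.96 ± 0.22 and was not called in that fit (adjusted p = 0.177), and Bhlhe22, a factor of dorsal neurons, by -3.27 ± 0.48.

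**Figure D3:**
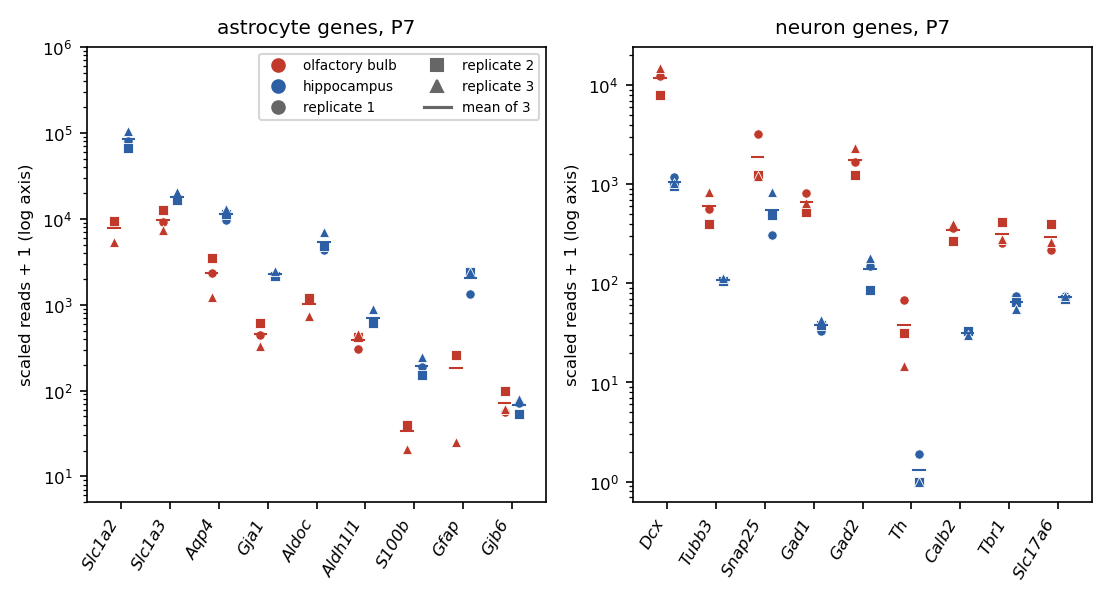
Scaled reads + 1 on a log axis in each P7 library for 9 astrocyte genes and 9 neuron genes, with olfactory bulb in red, hippocampus in blue, a marker shape for each replicate and a bar for the mean of 3. Slc1a2 is 5425 to 9482 in olfactory bulb and 66386 to 104809 in hippocampus, Gjb6 overlaps, and every neuron gene drawn is higher in olfactory bulb in every library.

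Transcription factors of the ventral forebrain and bulb went mostly to the olfactory bulb side, with 15 of 19 tested higher there, 3 higher in hippocampus and a median of 2.96. Meis2, a TALE homeobox factor of bulb neurons, had 5649, 3587 and 5883 scaled reads in olfactory bulb and 567, 503 and 441.5 in hippocampus, a difference of 3.29 ± 0.20. Pbx3, its TALE partner, had 2152, 1349 and 2345 against 116, 116 and 149, a difference of 3.90 ± 0.21. Tshz1, a zinc finger factor of bulb granule cells, had 2287, 1325 and 1789 against 221, 230 and 225, a difference of 2.96 ± 0.19. In these 3 genes hippocampus replicate 1 did not stand apart from its group. Zic genes were split, with Zic1 at 1.77 ± 0.42 but Zic2 at -1.24 ± 0.31 and Zic5 at -1.95 ± 0.47. Zic5 was not called in the fit of 28 libraries (adjusted p = 0.120).

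Among 17 tested dorsal forebrain transcription factors, 9 were higher in hippocampus and 4 in olfactory bulb, with a median of -1.37. Lhx9, a LIM homeobox factor of the medial pallium, had 49.5, 85.2 and 54.2 scaled reads in hippocampus and no read in olfactory bulb. Against a floor of 3 reads per library this was at least 21.7-fold higher in hippocampus. Dmrt3, a factor of the medial pallium, had 32.7, 32.6 and 27.8 in hippocampus and no read in olfactory bulb, at least 10.7-fold higher in hippocampus. Prox1, which specifies dentate granule cells, had 426, 502 and 326 in hippocampus against 52.5, 45.8 and 89.2 in olfactory bulb, a difference of -2.76 ± 0.26. Emx2, a homeobox factor that the hippocampus needs to form, had 300.3, 306 and 408 against 81.5, 93.8 and 77.5, a difference of -1.98 ± 0.18. The members higher in olfactory bulb are known from its projection neurons and their precursors. Tbr1 had 256, 411.5 and 283 in olfactory bulb and 73.3, 63.5 and 54.2 in hippocampus, a difference of 2.28 ± 0.22, and Eomes differed by 2.20 ± 0.45, which was 1.60 without hippocampus replicate 3. In the fit of 28 libraries neither was called, with adjusted p = 0.115 for Tbr1 and 0.0560 for Eomes. Pax6 was called at 0.45 ± 0.16, and it lost its call whichever library was left out, with an adjusted p of up to 0.184.

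Radial glia and immature astrocyte genes did not go the opposite way from the maturation genes. Of 16 tested, 13 were higher in hippocampus and none in olfactory bulb, with a median of -1.53. Hopx, a homeodomain-only gene of radial glia and dentate stem cells, had 54.3, 46.9 and 38.7 scaled reads in olfactory bulb and 410, 579 and 748 in hippocampus, a difference of -3.58 ± 0.23. Tnc, the matrix protein tenascin C, had 971, 1913 and 1028 against 5188, 8703 and 7712, a difference of -2.50 ± 0.28. Fabp7, a brain lipid-binding protein, had 5660, 9192 and 6173 against 15911, 16445 and 21819, a difference of -1.38 ± 0.22. The regions did not overlap in these 3 genes, as in 50.8% of all tested genes. Cell cycle genes differed less. Of 15 mitosis genes 6 were higher in hippocampus, a count that fell to 1 without hippocampus replicate 1. Of 16 DNA replication genes 3 were higher in hippocampus, a share near the 18.0% of all tested genes called in that direction, and a count of 1 without hippocampus replicate 1 and 8 without hippocampus replicate 3, and with Rn45s kept 1 gene went each way. Mki67, the proliferation antigen, had 548, 1051 and 901 against 1791, 1521 and 1011, and its adjusted p of 0.0411 rose to as much as 0.140 without olfactory bulb replicate 1, with the call also lost without hippocampus replicate 1 or 2 or olfactory bulb replicate 3. Neither list had a member higher in olfactory bulb.

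**Figure D4:**
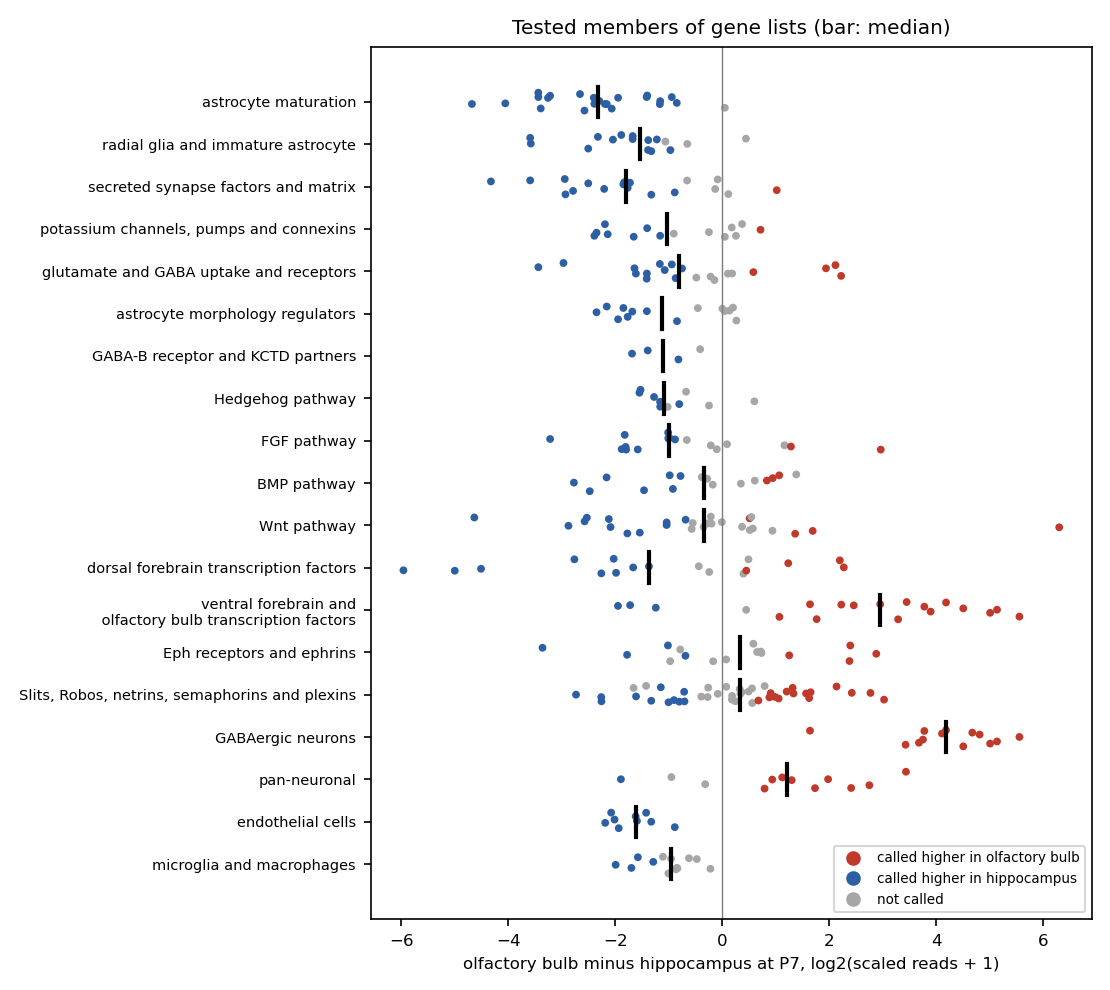
Difference between olfactory bulb and hippocampus at P7 in log2(scaled reads + 1) for each tested member of 19 gene lists, with members called higher in olfactory bulb in red, higher in hippocampus in blue, not called in gray and a bar at the median. The astrocyte maturation list lies left of 0 apart from Gjb6 with a median of -2.32, and the GABAergic neuron list lies right of 0 with a median of 4.19.

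The lists of ion and transmitter handling genes share members with the maturation list, so their counts are not separate from it. Kcnj10, Atp1b2, Gja1, Aqp4 and Slc4a4, all called higher in hippocampus, are also maturation genes, and so are Slc1a2, Slc1a3, Glul and Grin2c of the uptake list. Of 14 potassium channels, pumps and connexins, 7 were higher in hippocampus and 1, Kcnk10, in olfactory bulb, which lost its call without hippocampus replicate 1 or 2 (adjusted p up to 0.0610). Kcnj10, the inward rectifier Kir4.1, had 1103, 1304 and 820 scaled reads in olfactory bulb and 2832, 2431 and 3156 in hippocampus, a difference of -1.40 ± 0.19. The groups did not overlap, as in 50.8% of all tested genes. Of 20 genes of glutamate and GABA uptake and their receptors, 11 were higher in hippocampus and 4 in olfactory bulb. The share in olfactory bulb was near the 16.8% of all tested genes called that way. Grm3, a glutamate receptor of astrocytes, had 471, 679 and 258.5 against 3398, 2841 and 4102, a difference of -2.97 ± 0.30. Gria1, an AMPA receptor subunit, went the other way with 1653, 1429 and 1657 against 190, 313 and 637, a difference of 2.23 ± 0.35. Gabrb1, a GABA-A receptor subunit, differed by -1.64 ± 0.30. The GABA carrier Slc6a11 was not called at -0.14 ± 0.19 (adjusted p = 0.603).

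Secreted synapse factors and matrix genes were higher in hippocampus in 13 of 18 cases, with 1 gene, Thbs2, higher in olfactory bulb and a median of -1.80. Sparc, a secreted protein that limits synapse formation, had 439, 402 and 538.5 scaled reads in olfactory bulb and 3692, 2432 and 4700 in hippocampus, a difference of -2.93 ± 0.23. Sparcl1, its relative hevin that promotes synapses, had 3007, 4316 and 1978 against 20952, 18868 and 29443, a difference of -2.94 ± 0.28. The opposed pair thus differed to a like extent between the regions, although the difference between the 2 values was not tested. Ncan, the proteoglycan neurocan, had 14645, 20524 and 8808 against 54856, 60253 and 78434, a difference of -2.20 ± 0.30. With quantile normalization Ncan was at -0.95 and not called (adjusted p = 0.0722). Thbs1, a thrombospondin, differed by -2.79 ± 0.36, with an adjusted p of 0.0518 in the fit of 28 libraries, and the glypicans Gpc4 and Gpc6 by -1.85 ± 0.20 and -1.76 ± 0.18. Thbs2 differed by 1.02 ± 0.29 and lost its call without hippocampus replicate 1 or 2 or olfactory bulb replicate 1 or 2, with an adjusted p of up to 0.0682. Of 14 genes that regulate astrocyte shape, 8 were higher in hippocampus and none in olfactory bulb. Most of the 8 are members of lists counted above, so this count is not separate from those. Hepacam, Mlc1 and Gja1 are maturation genes, Grm5 is in the uptake list, and Gpc4 and Gpc6 are in the secreted list. The others were Ezr, the ezrin of fine processes, at -1.68 ± 0.20, and Ntrk2, the receptor of brain-derived neurotrophic factor, at -0.84 ± 0.20. Ntrk2 was not called with quantile normalization, at -0.36 (adjusted p = 0.216).

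Guidance genes had members on both sides. Of 43 Slit, Robo, netrin, semaphorin and plexin genes, 15 were higher in olfactory bulb and 11 in hippocampus, and of 16 Eph receptors and ephrins 4 went each way. The shares over all tested genes were 16.8% and 18.0%. In the fit of 28 libraries the first list had 9 and 10. The Eph and ephrin counts were 6 in olfactory bulb and 4 in hippocampus without hippocampus replicate 3, and 5 and 3 with Rn45s kept. Robo2, a Slit receptor of migrating neuroblasts, had 3208, 2926 and 4584 scaled reads in olfactory bulb and 495.5, 499 and 539 in hippocampus, a difference of 2.78 ± 0.18. Its ligand Slit2 went the other way, with 125.5, 64.0 and 61.2 against 675, 451 and 489, a difference of -2.73 ± 0.28. Neither Robo2 nor Slit2 overlapped between the regions, as was so for 50.8% of all tested genes. Efnb2, an ephrin, had 594, 676 and 1213 against 198, 132 and 125, a difference of 2.40 ± 0.27. Ephb1, a receptor for B ephrins, had 26.2, 33.0 and 34.2 against 282, 329 and 375, a difference of -3.36 ± 0.20. Unc5d, a netrin receptor family member, differed by 2.43 ± 0.20 and Plxnd1, a plexin, by -2.26 ± 0.25.

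Signaling lists for the Wnt, Hedgehog, BMP, FGF and retinoic acid pathways were counted next. Of 27 Wnt genes 11 were higher in hippocampus and 4 in olfactory bulb, but with a minimum mean of 100 scaled reads 3 were called each way. Over all tested genes 18.0% were called higher in hippocampus and 16.8% in olfactory bulb, and the Wnt share in olfactory bulb was near the latter. Wnt8b, a ligand of the hippocampal primordium, had 31.8, 21.8 and 19.4 scaled reads in hippocampus and no read in olfactory bulb, at least 8.38-fold higher in hippocampus. Lef1, the transcription factor that reads out Wnt signals, had 77.7, 110 and 81.9 in hippocampus against 7.49, 14.9 and 12.6, a difference of -2.87 ± 0.32. Axin2, a target that feeds back on the pathway, differed by -1.54 ± 0.21. On the other side stood Lgr5, Lgr6 at 1.69 ± 0.35 and the secreted inhibitor Sfrp1 at 1.37 ± 0.14. The fourth, Wnt7a, was called at 0.52 ± 0.17, and its adjusted p rose to as much as 0.115 with 1 library left out, under 0.05 only without olfactory bulb replicate 3.

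Of 10 Hedgehog genes 6 were higher in hippocampus and none in olfactory bulb, among them the transducer Smo at -1.27 ± 0.19, the receptor Ptch1 at -0.80 ± 0.16 and the factor Gli3 at -1.52 ± 0.19. Of 16 BMP genes 7 were higher in hippocampus and 3, Bmp7, Acvr1 and Smad7, in olfactory bulb. The share in olfactory bulb was near the 16.8% of all tested genes called that way. In the fit of 28 libraries these 3 were not called, with limma adjusted p of 0.0556, 0.192 and 0.0698. Id3, an inhibitor of basic helix-loop-helix factors and a target of the pathway, had 86.2, 115 and 59.4 scaled reads in olfactory bulb and 418, 685.5 and 675 in hippocampus, a difference of -2.77 ± 0.27. Of 18 FGF genes 10 were higher in hippocampus and 2, Fgf9 and Fgf14, in olfactory bulb. Fgf9 lost its call without olfactory bulb replicate 1 or 2, with an adjusted p of up to 0.0735. Targets of the pathway were among the 10, with the feedback inhibitor Spry2 at -1.79 ± 0.24 and the factor Etv5 at -0.99 ± 0.15. Of 13 retinoic acid genes 3 were higher in hippocampus, a count of 2 without hippocampus replicate 3, and 1 in olfactory bulb. The share in hippocampus was near the 18.0% of all tested genes, and with a minimum mean of 100 scaled reads 0 were called either way. Aldh1a1, a retinaldehyde dehydrogenase, had 12.2, 13.9 and 18.9 in olfactory bulb against 89.2, 174 and 119, a difference of -2.98 ± 0.30. Aldh1a2, another enzyme of that step, was called at 0.90 ± 0.30 and kept its call only without olfactory bulb replicate 1, with an adjusted p of up to 0.148 otherwise.

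Markers of other cell types were counted in the same libraries. Over all tested genes 18.0% were called higher in hippocampus and 16.8% in olfactory bulb. Endothelial markers were higher in hippocampus in 9 of 9 cases, a count of 6 without hippocampus replicate 1 and 0 in the fit of 28 libraries, with summed levels of 199.5 to 262 in olfactory bulb and 598 to 1122 in hippocampus. Kdr, a receptor of vascular endothelial growth factor, had 34.7, 46.9 and 50.4 scaled reads in olfactory bulb against 281, 145 and 158, a difference of -2.07 ± 0.28 that was not called in that fit (adjusted p = 0.164). Their part in the results on Sox7 and Cav2, also known from endothelium, was not tested. Of 13 microglia and macrophage markers 4 were higher in hippocampus, a count of 0 without hippocampus replicate 1 and 9 without hippocampus replicate 3. Summed levels of these markers overlapped, at 452 to 1440 in olfactory bulb and 744 to 2861 in hippocampus. Of 8 oligodendrocyte precursor markers 2, Olig1 and Olig2, were higher in hippocampus and none in olfactory bulb, and Olig2 lost its call without hippocampus replicate 1 or 2 or olfactory bulb replicate 3 (adjusted p up to 0.0759). Of 7 olfactory ensheathing cell markers, the glia of the olfactory nerve, 3 were higher in olfactory bulb, among them Cdh19 at 2.19 ± 0.36 and Npy at 2.05 ± 0.45, which was not called in the fit of 28 libraries (adjusted p = 0.0670). Of the others, Fabp7, also a radial glia gene, was higher in hippocampus and 3 were not called. The summed level of the list, most of it Fabp7, was 6225 to 9805 in olfactory bulb and 16083 to 22020 in hippocampus. Hippocampal neuron markers were higher in hippocampus in 3 of 6 cases, among them Crym, a ketimine reductase, at -4.87 ± 0.66, which was -4.24 without hippocampus replicate 3 and -5.58 without hippocampus replicate 1. Immediate early genes, which respond to activity and to dissociation, were higher in hippocampus in 8 of 8 cases with a median of -1.96. Fos had 474, 640 and 233 in olfactory bulb against 2003, 3060 and 1569, a difference of -2.36 ± 0.35, and its list's part in the other results was not tested.

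The P7 cortex libraries were placed on the same scale to see on which side of the difference they lay, with the 28 developmental libraries scaled together and no test. Of the 2123 genes higher in olfactory bulb, the cortex mean was below both regions for 995 and nearer the lower region for 895. It was nearer the higher region for 203 and above both for 30. Of the 2272 genes higher in hippocampus, the cortex mean was above both regions for 1136 and nearer the higher one for 801, against 249 nearer the lower one and 86 below both. Cortex thus lay on the hippocampal side of most differences.

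The region difference was then compared between ages, with P7 and P1 in 1 fit and P14 and P7 in another, each over 12 libraries on a scale of its own. The fits share the 6 P7 libraries, so their results are not independent of each other. Of 12828 genes, 841 (6.56%) had a region difference at P7 that differed from that at P1 by limma at an adjusted p of 0.05. The difference moved toward olfactory bulb for 508 (3.96%) and toward hippocampus for 333 (2.60%). That total was 551 without P1 olfactory bulb replicate 2. Of 11636 genes, 879 (7.55%) differed between P14 and P7, toward olfactory bulb for 667 (5.73%) and toward hippocampus for 212 (1.82%). That total fell to between 546 and 573 without any 1 of hippocampus P7 replicates 1, 2 and 3 and olfactory bulb P7 replicates 1 and 3. Of the genes called higher in olfactory bulb at P7, 89.15% of 2074 tested at P1 and 73.04% of 1610 tested at P14 had the same sign. Of those called higher in hippocampus the shares were 90.35% of 2145 and 63.65% of 2085. Over all genes tested at both ages, called or not, the same sign was found for 74.15% at P1 and 59.76% at P14. The P14 libraries had fewer reads, 1773226 to 2669394 in olfactory bulb and 2539583 to 4248087 in hippocampus. Spread between replicates, as the common coefficient of variation in edgeR, was 34.6% with P14 and P7 and 19.0% with P7 and P1. The part of depth and spread in the lower P14 shares was not tested.

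Gabbr1 changed its side between P1 and P7. At P1 the olfactory bulb libraries had 1126, 970 and 905.5 scaled reads and hippocampus had 718.5, 683 and 681. At P7 on the same scale the values were 1034, 919 and 993 in olfactory bulb and 2853, 2893 and 3917 in hippocampus. Bulb values lay above hippocampus at P1 and below it at P7, with bulb means of 1001 and 982. The region difference went from 0.52 to -1.70, a change of -2.22 ± 0.19 (adjusted p = 1.24e-05). On the scale of P7 and P14 the P14 values were 617, 464 and 612 in olfactory bulb and 2843, 3267 and 3687 in hippocampus. The difference at P14 was -2.53, and its change from P7 of -0.88 ± 0.23 was called at an adjusted p of 0.0296 with all libraries. It lost its call in 6 of 12 cases of leaving out a library, with an adjusted p of up to 0.0928 without hippocampus P7 replicate 1. The other cases were hippocampus P7 replicate 2, hippocampus P14 replicate 3, olfactory bulb P7 replicates 1 and 3, and olfactory bulb P14 replicate 2.

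Astrocyte maturation genes were higher in hippocampus at each age by their median, and least so at P14. For 22 members tested at all 3 ages the median region difference was -1.52 at P1, -2.24 at P7 and -0.74 at P14. From P7 to P14 the difference moved toward olfactory bulb in 18 of 24 members and toward hippocampus in none. Neuronal marker sums in olfactory bulb were lower at P14 than at P7 on the same scale. The GABAergic sum was 3191 to 6192 at P7 and 684 to 883 at P14 in olfactory bulb, and 230 to 542 and 69.9 to 145 in hippocampus. The pan-neuronal sum was 13773 to 19695 and 5121 to 6439 in olfactory bulb, and 3783 to 5121 and 2587 to 2725 in hippocampus. Immediate early genes also moved toward olfactory bulb in 4 of 7 cases, with a median change of 3.47. The part of these in the change of the maturation genes was not tested. Slc1a2 had 75817, 87342 and 75846 scaled reads in olfactory bulb and 368890, 404398 and 389304 in hippocampus at P14. Its P14 region difference of -2.28 was smaller than that of -3.40 at P7, a change of 1.12 ± 0.28 (adjusted p = 0.0212) that lost its call without hippocampus P7 replicate 3 or olfactory bulb P14 replicate 2. Aqp4 reached 18789, 17466 and 15540 in olfactory bulb and 15983, 15161 and 15982 in hippocampus, and its difference went from -2.35 to 0.13. The bulb and hippocampal libraries thus overlapped for Aqp4 at P14 and not at P7. Among the 5 genes examined with the receptor, 4 moved toward olfactory bulb from P7 to P14, Npas3 by 2.08, Ednrb by 1.87, Sox9 by 1.28 and Nfia by 1.196.

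The genes named for the largest changes between P1 and P7 toward olfactory bulb were Epha3, Cntn2 and Unc5d. Epha3, an Eph receptor, had 178.5, 174 and 160 scaled reads in olfactory bulb and 512, 587 and 602 in hippocampus at P1. At P7 it had 402, 309.5 and 232 against 46.0, 42.3 and 102, so that the order of the regions was turned, a change of 4.09 ± 0.38. Unc5d changed by 3.65 ± 0.26, with 646, 826 and 821 in olfactory bulb and 1549, 2189 and 1689 in hippocampus at P1. Cntn2, a contactin of growing axons, changed by 3.90 ± 0.44. Toward hippocampus moved Gpc5, a glypican of astrocytes, by -3.48 ± 0.43, and Brinp1, a neuronal gene, by -3.27 ± 0.39. Ttr changed by -5.52 ± 1.54 and lost its call in 10 of 12 cases of leaving out a library, with an adjusted p of up to 0.106 without P1 olfactory bulb replicate 2. It kept it only without P1 hippocampus replicate 1 or P7 hippocampus replicate 1, and the change ranged from -7.33 without P7 hippocampus replicate 1 to -3.96 without P7 hippocampus replicate 3. With all 12 libraries the call of Ttr was also lost by limma with a minimum mean of 100 (adjusted p = 0.0581) or a pseudocount of 8 (adjusted p = 0.0941).

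From P7 to P14 the genes named for the largest changes toward olfactory bulb were Adgrf5, Cd93 and Kdr, all known from endothelium. Adgrf5 changed by 8.44 ± 0.86, Cd93 by 8.44 ± 1.35 and Kdr by 7.70 ± 1.44, and 9 of 9 endothelial markers changed that way. Without P14 hippocampus replicate 1 these 3 changes were 7.62, 7.51 and 7.002, without P14 hippocampus replicate 2 those of Kdr and Adgrf5 were 9.13 and 8.99, and without P14 olfactory bulb replicate 1 that of Cd93 was 9.76. Their summed level in olfactory bulb was 411, 1079 and 1861 at P14, whereas hippocampus had 36.1, 180 and 8.98. At P7 on the same scale these sums were 137, 175 and 179 in olfactory bulb and 749.5, 408 and 401 in hippocampus. The order of the regions in endothelial RNA was thus turned between the ages, and its part in the other P14 results was not tested. The largest changes toward hippocampus were Neurod1, a factor of new excitatory neurons, at -5.65 ± 0.69, Palm2, a paralemmin gene, at -4.64 ± 1.198, and Ttr at -5.92 ± 1.65. Palm2 lost its call in 5 and Ttr in 9 of 12 cases of leaving out a library, with adjusted p up to 0.0752 without olfactory bulb P7 replicate 1 and up to 0.0923 without olfactory bulb P14 replicate 2. Palm2 ranged from -5.46 without olfactory bulb P14 replicate 2 to -3.68 without olfactory bulb P14 replicate 3, and Ttr from -7.49 without hippocampus P7 replicate 3 to -4.13 without hippocampus P7 replicate 1.

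**Figure D5:**
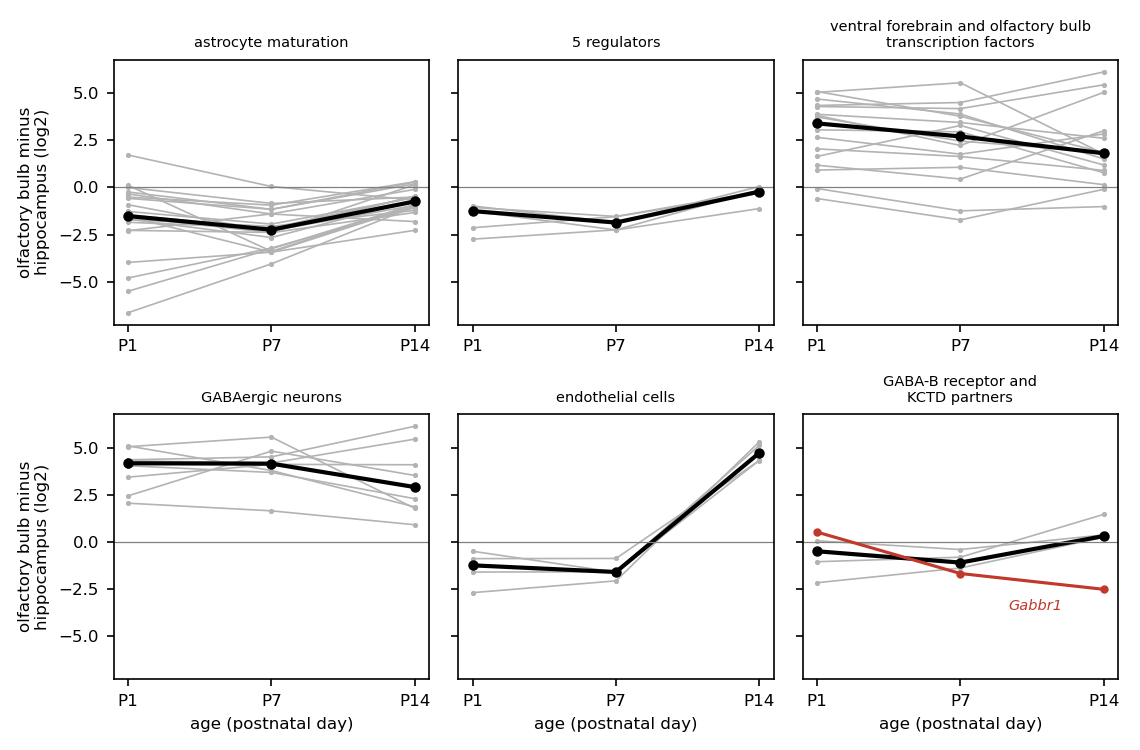
Region difference in log2(scaled reads + 1), olfactory bulb minus hippocampus, at P1, P7 and P14 for the members of 6 gene lists tested at all 3 ages (gray lines), their median (black) and Gabbr1 (red). Each age is from a fit of its own 6 libraries. The astrocyte maturation median goes from -1.52 to -2.24 to -0.74, the endothelial median of 4 genes from -1.25 to -1.60 to 4.72, and Gabbr1 falls from 0.52 to -1.68 to -2.52.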

How the data were processed

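RNA-seq libraries were made from low-input total RNA with the Trio RNA-seq kit (Nugen), per the labels' protocols. STAR 2.5.0a, DESeq2 1.20.0, FastQC and MultiQC and the build mm10 are named in the submitters' processing notes; the counting program, strand setting and annotation are not given in the sources used here. Each regional table that the authors deposited gives 24421 rows, with a size-factor-scaled signal in every library. Each column was divided by its smallest positive value to recover reads, and 100% of values came out whole within 0.01. Tables were joined by row order, 27 symbols written as dates were restored from it, and Rn45s was dropped.

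The 6 libraries were scaled together by median ratio. Genes with a mean of at least 10 were tested as log2(value + 1) with limma 3.58.1 (trend) in R 4.3.3, with Benjamini-Hochberg adjustment over all tested genes and a threshold of 0.05. Because the deposited unit is a signal, count tests on recovered reads were alternatives, with edgeR 4.0.16 and DESeq2 1.42.0. The change of the region difference between ages was tested as an interaction in limma over 12 libraries. The procedure for the P7 comparison was run on simulated data, with the outcome not reported here. The tests between ages were not simulated. Reads between 3965254 and 5542610 per library set the precision, and a floor of 3 reads per library was used for lower bounds.

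Genes named are members of 36 gene lists and, by rule, the 12 largest called differences in each direction with no overlap between regions and a mean at or above the median of tested genes, and the 3 largest in each direction for each test between ages, leaving out predicted genes. A few list genes are not reported here. Members, lists and tests were chosen with earlier results of these data known. Of 483 list genes 404 passed the filter. Replicate numbers follow accession order and were not used to pair samples. Promoter windows came from the RefSeq table of GRCm38.p6, matched by symbol. Alternatives were other pseudocounts (0.1 and 8), filters (none, mean of 100), scalings, tools, fits with more libraries, reads thinned to 2847166, an Xist covariate, a 2-fold requirement and leaving out each library.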

Additional observations from a re-analysis of the deposited data

Results flagged for a closer look

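The results here were picked out because the test of the change itself found the region difference, olfactory bulb minus hippocampus in log2(scaled reads + 1), to differ between ages (limma interaction, adjusted p under 0.05, Benjamini-Hochberg adjusted over all tested genes). They are values only.

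Between P1 and P7 the difference moved toward olfactory bulb for Epha3 (4.09), Cntn2 (3.90), Unc5d (3.65), Cdhr1 (3.92), Lgr5 (2.98), Synpr (2.37) and Has2 (1.97). It moved toward hippocampus for Ttr (-5.52), Gpc5 (-3.48), Brinp1 (-3.27), Gabbr1 (-2.22), Slc1a2 (-1.91), Gja1 (-1.45) and Aldh1l1 (-0.87). Has2 was higher in hippocampus at both ages, so its change was toward a smaller difference at P7. It rests on low values, with at most 5 reads in any P7 olfactory bulb library. With a pseudocount of 8 the change was 0.507 and not called (limma adjusted p = 0.467). It was also not called in edgeR (adjusted p = 0.125) or by limma with a minimum mean of 100 (adjusted p = 0.0766). Of the 24 genes with the largest P7 differences, 24 had the same sign at P1, and 5 of them were called for a change in size. The 24 were chosen on P7 values that also enter this test, so these counts are no independent result. Over all tested genes 6.56% were called for a change. Of all genes called at P7, 89.15% of those higher in olfactory bulb and 90.35% of those higher in hippocampus had the same sign at P1. Calls were lost when 1 of 12 libraries was left out in 10 cases for Ttr, 10 for Lgr5, 8 for Aldh1l1, 7 for Has2 and 6 for Cdhr1, with adjusted p up to 0.106, 0.117, 0.121, 0.0790 and 0.0858. Other alternatives ended calls too. In edgeR the adjusted p was 0.0529 for Lgr5 and 0.178 for Cdhr1. By limma with a minimum mean of 100 it was 0.124 for Lgr5 and 0.0581 for Ttr, and with a pseudocount of 8 it was 0.0941 for Ttr. Lgr5 ranged from 2.24 without P1 hippocampus replicate 3 to 3.85 without P1 hippocampus replicate 2, and Cdhr1 from 2.92 without P7 hippocampus replicate 1 to 4.68 without P7 hippocampus replicate 3.

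Between P7 and P14 it moved toward olfactory bulb for Adgrf5 (8.44), Cd93 (8.44), Kdr (7.70), Sox7 (3.39), Hapln1 (3.02), Gfap (2.99), Cav2 (2.70), Ccdc80 (2.69), Aqp4 (2.49), Kctd12 (2.23), Npas3 (2.08), Ednrb (1.87), Gja1 (1.85), Gabbr2 (1.59), Sox9 (1.28), Nfia (1.196) and Slc1a2 (1.12). It moved toward hippocampus for Ttr (-5.92), Neurod1 (-5.65), Palm2 (-4.64), Pbx3 (-2.42), Tshz1 (-2.21), Meis2 (-2.14) and Gabbr1 (-0.88). Of the 24 genes with the largest P7 differences, 24 had the same sign at P14, and 6 of them were called for a change. These counts too come from genes chosen on P7 values that enter the test. Over all tested genes 7.55% were called for a change. Of all genes called at P7, 73.04% of those higher in olfactory bulb and 63.65% of those higher in hippocampus had the same sign at P14. Calls were lost in 10 of 12 cases for Gabbr2, 9 for Ttr, 8 for Gfap, 8 for Sox7, 6 for Gabbr1, 5 for Palm2, 2 for Slc1a2 and 1 for Ccdc80. Without P7 olfactory bulb replicate 3 the changes of Gfap, Hapln1 and Cav2 were 1.88, 2.12 and 2.05, and without P14 olfactory bulb replicate 2 that of Sox7 was 2.42. Summed endothelial markers were 411 to 1861 in olfactory bulb and 8.98 to 180 in hippocampus at P14, and their part in the changes of Sox7, Cav2 and Kdr was not tested.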

How the results depend on the processing

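The P7 total of 4395 called genes was 2865 with a minimum mean of 100, where 6137 genes were tested, with 1389 higher in hippocampus. With Rn45s kept 3336 genes were higher in olfactory bulb. An added 2-fold requirement left 2517 genes, 1100 higher in olfactory bulb and 1417 in hippocampus. edgeR called 4388 and DESeq2 4366. The fit of 28 libraries called 3088. Leaving out 1 library gave 3278 to 3881 calls, 1583 to 1910 higher in olfactory bulb and 1695 to 2081 higher in hippocampus. For P7 against P1 the ranges were 551 to 839, 350 to 562 and 201 to 355, and for P14 against P7 546 to 945, 409 to 698 and 109 to 275.

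Among 154 named genes, leaving out a library kept the call and direction in 879 values and ended the call in 39, from 12 genes: Aldh1a2, Bmp7, Fgf9, Gria2, Kcnk10, Mki67, Olig2, Pax6, Smad7, Thbs2, Top2a and Wnt7a. The other alternatives kept 2532 and ended 51, from 26 genes. These were Aldh1a2, Bmp7, Gria2, Kcnk10, Mki67, Olig2, Pax6, Smad7, Thbs2, Top2a and Wnt7a again, and Acvr1, Cldn5, Efnb3, Eomes, Kdr, Ncan, Neurod1, Npy, Ntrk2, Sema5a, Slc17a6, Slc1a3, Tbr1, Thbs1 and Zic5. Among 38 named changes between ages, leaving out a library kept the call in 366 values and ended it in 90. The other alternatives kept 139 and ended 9, from Cdhr1, Has2, Lgr5 and Ttr. Changes of sign were seen only for Gjb6 and Slc6a11 in the P7 comparison, neither called with all libraries. With 1 library left out Gjb6 ranged from -0.195 to 0.215, below 0 without hippocampus replicate 2 or olfactory bulb replicate 2, and Slc6a11 from -0.284 to 0.0101, above 0 without olfactory bulb replicate 3. Slc6a11 was 0.0453 with quantile normalization, 0.0861 with Rn45s kept and 0.0312 with array weights. The cause was not tested. No paired analysis was run, because the labels name no animals and give no replicate numbers shared between regions. The P7 library numbers rise in the same steps in both regions, so a pairing by animal may exist, and it was not tested. At 3965254 to 5542610 reads per library, genes under a mean of 10 scaled reads were not tested.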
